A study of Mus musculus with 4 samples.

Results

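KO and WT leukaemic cells of the mouse, neither treated with a drug, were compared by methylated DNA immunoprecipitation on a promoter and CpG island array (MeDIP-chip). The source names call the cells Mll5 KO and Mll5 WT, while the KO samples carry HOXA9 KO as their genotype, so the labels disagree on the deleted gene, and "KO" here means the cells so titled. Both were cultured leukaemic cells kept in serum with interleukin-6, interleukin-3 and stem cell factor, and both were harvested at 72 h without decitabine. The labels do not say how the leukaemia was made or whether the KO cells come from 1 clone. Each group was 1 array, on which Cy3 carried the immunoprecipitated DNA (MeDIP) and Cy5 the input DNA of the same cells. A further pair of arrays held KO and WT cells given 20 nM decitabine, an inhibitor of DNA methyltransferases, every 24 h for 3 days. The study's title asks how MLL5 bears on DNA methylation and on the response to decitabine in acute myeloid leukaemia, and the untreated pair shows the state without the drug. The members are all genes with at least 3 usable probes on both untreated arrays, which gave 18533 of the 19955 genes named on the array. A gene's level is its mean log2 ratio of MeDIP over input, centred on the array median, and the measure compared is KO minus WT of that level.

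MeDIP uses an antibody to methylated cytosine, so a region is pulled down more when it holds more methylated CpG dinucleotides. Promoters rich in CpG (CpG islands) are mostly free of methylation in normal cells and can gain it in leukaemia, whereas CpG-poor DNA between genes is mostly methylated but gives little MeDIP signal for want of CpG. The ratio to input is meant to remove differences in how much of each DNA fragment was present and how well it was amplified and labelled, which makes the input channel part of every value. MLL5 is a chromatin protein that carries a SET domain and a PHD finger and is known for roles in blood stem cells, and HOXA9 is a homeobox transcription factor that is highly expressed in many acute myeloid leukaemias.

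Of 520554 probes, 374583 (72.0%) were kept because the input was well above background on both arrays, and a gene had a median of 19 of them. MeDIP was weak on both arrays. It was well above background (called bright here) at 3.62% of the kept probes in WT and 3.61% in KO, 8745 probes were bright on both, and 43.9% of genes had no bright probe on either array. The scanner software replaced the MeDIP signal by a surrogate value at 62.6% of the kept probes in WT and 60.8% in KO. With 1 array a group no difference between WT and KO has a replicate check, the SD given is the spread over a gene's probes and not over cultures, and as every array came from a different slide, a slide effect and the group cannot be told apart.

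The median KO-minus-WT difference was -0.002 log2 units with 49.7% of genes above 0, which the centring of each array on its median brings about. The SD over the 18533 genes, surrogate MeDIP values included, was 0.28, and the central genes, with the lowest and highest 5% left out, lay between -0.47 and 0.42. A difference of at least 2-fold with at least 80% of a gene's probes moving that way was met by 29 genes higher in KO (0.156% of genes) and 27 lower (0.146%). Of the higher genes 22 and of the lower genes 21 had no bright MeDIP probe on either array. In those genes the ratio sets a MeDIP signal not well above background against a measured input signal.

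Short runs of neighbouring probes, each bright on the array with the higher ratio, were looked at next. On the other array a probe could be dim, so its MeDIP difference can set a bright signal against one not well above background. Picking probes this way favours a MeDIP difference in the direction of the run. There were 37 such runs of at least 3 probes higher in KO and 19 lower, the longest with 6 probes. To give a size that does not rest on background, signals dimmer than the lowest bright signal of the array were raised to it, so a fold is an "at least" where a probe was dim on either array. In the run near Sncaip and the proximal run of Spink2 every probe was bright on both, and the fold is the measured one. The run near Ttll12, a gene of the tubulin tyrosine ligase-like family, lay between genes, -5232 to -4614 bp from its start site, at chr15:83430173-83430841 (mm9). All 5 of its probes were bright in KO and none in WT. The log2 ratio over the run was -0.49 in WT and 1.20 in KO, and the difference of 1.69 ± 0.60 (SD, n = 5 probes) came with MeDIP higher by 1.25 and input lower by 0.43. With dim signals raised, KO was at least 2.30-fold higher. The probe sequences are printed because they show what this DNA is, with CpG dinucleotides in capitals and the plus strand of mm9 throughout; the run holds few CpG, and 2 of the 5 probes hold any.
Ttll12 probe 1, chr15:83430173-83430229: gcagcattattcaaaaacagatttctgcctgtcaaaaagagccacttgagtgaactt
Ttll12 probe 2, chr15:83430300-83430358: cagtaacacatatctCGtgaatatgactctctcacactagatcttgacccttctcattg
Ttll12 probe 3, chr15:83430454-83430499: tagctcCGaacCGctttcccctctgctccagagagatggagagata
Ttll12 probe 4, chr15:83430627-83430680: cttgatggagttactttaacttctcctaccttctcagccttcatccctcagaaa
Ttll12 probe 5, chr15:83430797-83430841: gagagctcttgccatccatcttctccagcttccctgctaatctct

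The difference of the second of these probes was the largest of the run, from -0.03 in WT to 2.64 in KO. Under decitabine the same 5 probes differed by 0.01 on average, so the difference seen without drug was not present between the treated arrays. Over all 23 probes the value of Ttll12 was 0.36 ± 0.93 (SD, n = 23 probes). The other 18 lay closer to the start site or beyond it and were dim on both arrays.

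C030019I05Rik, a RIKEN gene, held the run with the highest KO level of the 6 leading ones, in an intron at chr11:46049437-46049870 (mm9), 427 to 815 bp from the start site. Its 4 probes were all bright in KO and 2 were bright in WT. The log2 ratio was 1.14 in WT and 2.497 in KO, a difference of 1.36 ± 0.72 (SD, n = 4 probes) with MeDIP higher by 0.97 and input lower by 0.37, and KO was at least 2.27-fold higher. Each of the 4 probes holds 1 or 2 CpG, and all 4 were higher in KO under decitabine as well, by 0.57 on average.
C030019I05Rik probe 1, chr11:46049437-46049484: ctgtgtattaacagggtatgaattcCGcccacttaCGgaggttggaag
C030019I05Rik probe 2, chr11:46049550-46049594: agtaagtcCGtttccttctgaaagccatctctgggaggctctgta
C030019I05Rik probe 3, chr11:46049684-46049740: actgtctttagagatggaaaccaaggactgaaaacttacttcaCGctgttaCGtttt
C030019I05Rik probe 4, chr11:46049826-46049870: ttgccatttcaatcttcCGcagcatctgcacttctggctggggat

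Spink2, which encodes a Kazal-type inhibitor of serine peptidases, had 2 runs upstream of its start site, and they differed in which channel moved. In the distal run, at chr5:77642132-77642447 (mm9), the log2 ratio was -0.24 in WT and 1.04 in KO, and the difference of 1.28 ± 0.28 (SD, n = 3 probes) was MeDIP, which was higher by 1.29, while input differed by 0.03. In the proximal run, at chr5:77640924-77641236, the level was 0.002 in WT and 1.13 in KO, and the difference of 1.12 ± 0.21 (SD, n = 3 probes) was mostly input, which was lower by 0.93, with MeDIP higher by 0.18. The distal probes are shown because all 3 hold CpG and MeDIP carried the difference at each of them.
Spink2 distal probe 1, chr5:77642132-77642182: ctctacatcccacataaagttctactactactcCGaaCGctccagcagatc
Spink2 distal probe 2, chr5:77642287-77642334: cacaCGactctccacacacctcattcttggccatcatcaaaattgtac
Spink2 distal probe 3, chr5:77642403-77642447: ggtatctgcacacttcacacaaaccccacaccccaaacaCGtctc

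The other 2 leading runs higher in KO lay in introns. That of Atg10, whose protein joins ATG12 to ATG5 in autophagy, was at least 2.41-fold higher in KO (log2 ratio 0.57 in WT, 2.01 in KO), with MeDIP higher by 0.83 and input lower by 0.60. That of Arid3c, which encodes a DNA-binding protein with an ARID domain, was at least 2.04-fold higher (0.83 in WT, 2.19 in KO), with MeDIP higher by 1.09 and input lower by 0.26. Both were also higher in KO under decitabine, by 0.42 and 0.47. Of all 37 runs higher in KO, 34 were above 0 under decitabine too. Between the decitabine arrays the median difference was 0.33 at probes bright on both and 0.36 at those bright on 1. It was -0.09 at probes bright on neither, so probes bright there lay above 0 in general and not only in these runs.

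Of the runs lower in KO, that near Tspan7, a tetraspanin gene of the X chromosome, lay -1921 to -1497 bp from the start site, at chrX:10060334-10060817 (mm9). Its 3 probes were bright in WT and 1 was bright in KO. The log2 ratio was 2.65 in WT and 1.06 in KO, and the difference was -1.60 ± 0.94 (SD, n = 3 probes), with a MeDIP difference of -1.39 and an input difference of 0.23. KO was at least 2.04-fold lower. The run at Bre, a subunit of a BRCA1-associated deubiquitinase complex, began in an exon at the start site and ended in an intron 480 bp from it, at chr5:32004204-32004733. Its level was 2.83 in WT and 1.39 in KO, with a difference of -1.44 ± 0.31 (SD, n = 3 probes) and an "at least" size of 1.88-fold, and none of its probes was bright in KO. These 2 runs are shown as examples, and MeDIP moved more than input in each of the 6 leading runs lower in KO. The rule for lower runs asked for bright MeDIP in WT, which favours such a move. Most probes of the 2 runs shown were dim in KO. Of Bre the intronic probes are printed, and neither holds a CpG, while the exonic probe of the run holds 1. The 500 bp around each probe of the Bre run held 8 to 11 CpG.
Tspan7 probe 1, chrX:10060334-10060393: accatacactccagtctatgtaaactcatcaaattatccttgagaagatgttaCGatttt
Tspan7 probe 2, chrX:10060447-10060501: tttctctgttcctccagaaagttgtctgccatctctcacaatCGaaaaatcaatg
Tspan7 probe 3, chrX:10060758-10060817: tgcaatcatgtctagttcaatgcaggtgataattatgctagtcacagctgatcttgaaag
Bre probe 2, chr5:32004360-32004419: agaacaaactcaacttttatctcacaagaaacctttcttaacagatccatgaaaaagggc
Bre probe 3, chr5:32004674-32004733: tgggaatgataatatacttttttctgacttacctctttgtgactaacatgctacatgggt

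**Figure D1:**
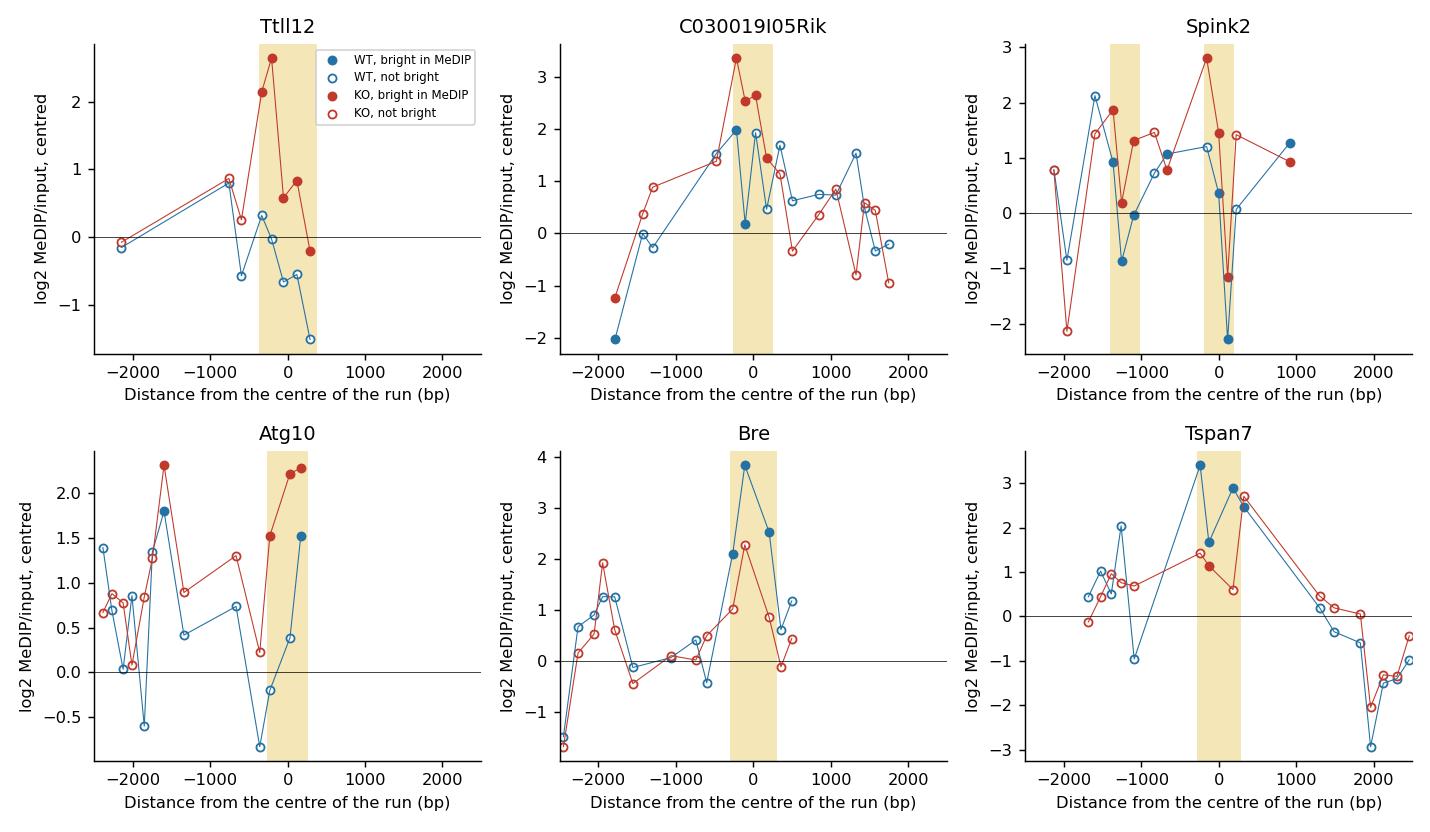
Centred log2 ratio of MeDIP over input (vertical axis) of each kept probe of 6 genes against its distance in bp from the centre of the gene's leading run (horizontal axis), in untreated WT (blue) and KO (red) cells. Filled points are bright in MeDIP, open points are not, each point is 1 probe on 1 array, and the shaded bands are the runs: KO lies above WT in those of Ttll12, C030019I05Rik, Spink2 and Atg10 and below WT in those of Bre and Tspan7.

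Of 19 runs lower in KO, 8 were below 0 under decitabine. The run at Bre differed by -0.41 there, and that near Tspan7 by 0.32, the other way. The other leading runs lower in KO were near AK049916 (at least 2.26-fold lower), in introns of Zim1, an imprinted zinc finger gene (at least 1.66-fold), and 2010012O05Rik (at least 1.63-fold), and near Sncaip, the gene of synphilin-1 (1.58-fold, measured). The AK049916 run differed by -1.83 ± 1.96 (SD, n = 3 probes), with 1 probe at -4.09 and the others at -0.78 and -0.62. The AK049916 run was lower under decitabine too (-0.38), and those of Zim1 (0.67), 2010012O05Rik (0.19) and Sncaip (0.38) were higher there. The shares of higher and lower runs that kept their direction were not tested against each other. Nor were they tested against all probes bright under decitabine, whose medians lay above 0.

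Over genes rather than runs, 426 genes had at least 3 probes bright on both arrays. Their median difference over those probes was 0.12, and 267 of the 426 were above 0, beside 49.7% of all genes over all their probes. The 8745 probes bright on both arrays had a median difference of 0.09, so bright probes lay above 0 in general. Of the 426 genes 4 were at least 2-fold higher in KO (0.939%) and 0 were 2-fold lower (0%). C030019I05Rik led with 1.16 ± 0.95 (SD, n = 4 probes), followed by L3mbtl3, which encodes a malignant brain tumour repeat protein, with 1.10 ± 0.18 (SD, n = 3 probes). Mxd3, a partner of MAX, differed by 1.07 ± 0.51 and Txk, a Tec family kinase of T cells, by 1.01 ± 0.72 (SD, n = 3 probes each). In L3mbtl3 MeDIP was higher by 0.87 and input lower by 0.22, whereas in Mxd3 input was lower by 0.62 and MeDIP higher by 0.43. Azin1, Arid3c, Lamb3 and Slc25a27 came next, between 0.88 and 0.97. The lowest was Nfkb2, an NF-κB subunit, at -0.85 ± 0.61 (SD, n = 3 probes), where MeDIP differed by 0.07 and input was higher by 0.94. Col19a1 (-0.77), Gramd4 (-0.77), Rpl5 (-0.73), Zfp318 (-0.73), Atp6ap2 (-0.66), Sncaip (-0.66) and Cyb5r3 (-0.62) followed. Among these 8 the MeDIP channel moved more than the input in Col19a1, Gramd4, Sncaip and Cyb5r3, and less in the rest. Over all of a gene's probes most of these values were smaller, and some had the other sign: Nfkb2 was at 0.09, Cyb5r3 at 0.22, Lamb3 at -0.07 and Slc25a27 at -0.01.

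Brightness on 1 array alone was also compared. Of the 18533 genes, 30 had at least 3 bright probes in KO and none in WT, and 31 the other way. Beside these, 426 genes had at least 3 probes bright on both arrays. Such counts were not tested. Ttll12 had 5 bright probes in KO. Capns1, the small subunit of calpain, and Tgm2, a transglutaminase, had 4 each. Coro1a, Agpat1, Ahdc1 and Amz1 had 3 each. In WT, Btc, which encodes the growth factor betacellulin, B230396O12Rik, Cacnb3 and Chrm4 had 4 bright probes each, and Cnpy4, Bre, Olfr214 and Pank2 had 3 each. No "at least" fold is given for these whole genes. The measured whole-gene differences of the genes named here ran from 0.16 in Tgm2 to 0.77 in Agpat1 for those bright in KO and from -0.45 in Bre to 0.30 in Chrm4 for those bright in WT.

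Genes with at least 5 probes, of which 1 or more was bright on both arrays and at least 80% moved together, gave the next set of names. Zfp827, a zinc finger gene, was highest and the one gene of this set that met the 2-fold rule. Its log2 ratio was -1.39 in WT and -0.28 in KO, a difference of 1.11 ± 0.66 (SD, n = 10 probes), and all 10 probes, each in an intron, were higher in KO. MeDIP was higher by 0.54 and input lower by 0.56, and over the 2 probes bright on both arrays the value was 0.62. Mfhas1 (0.97 ± 0.82, n = 6 probes) and Zbtb4 (0.88 ± 0.76, n = 13 probes) followed (SD over probes). Zbtb4 encodes a zinc finger protein that binds methylated CpG, and 12 of its 13 probes were higher in KO, from -0.84 in WT to 0.04 in KO.

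The rest of that set were genes of varied function. Rimbp2, a protein of the presynaptic active zone, differed by 0.79 ± 0.27 (SD, n = 5 probes) and Actl6b, a neuronal subunit of the BAF chromatin remodeller, by 0.74 ± 1.07 (SD, n = 29 probes). Gm693 (0.78), Hsf5 (0.76), Pcbp3 (0.74), Zfp708 (0.73), 4930451I11Rik (0.73), Ermp1 (0.73) and Edg6 (0.72), the sphingosine-1-phosphate receptor now called S1pr4, completed the 12. The input moved more than MeDIP in Zfp827, Rimbp2, Gm693, Hsf5, Pcbp3, 4930451I11Rik and Edg6. Zfp708 had MeDIP higher by 0.66 and input lower by 0.06, and it was lower in KO under decitabine (-0.15). At the single probe of Gm693 bright on both arrays the difference was -0.43, against 0.78 over the gene.

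Of the 12 lowest genes of the same kind, Zpbp2, a sperm protein that binds the zona pellucida, came first: its log2 ratio was 0.32 in WT and -0.57 in KO, a difference of -0.89 ± 1.08 (SD, n = 14 probes), with MeDIP at -0.14 and input higher by 0.77. Fdft1, which encodes squalene synthase, was at -0.84 ± 0.75 (SD, n = 24 probes) and Rpusd4, a pseudouridine synthase, at -0.81 ± 0.78 (SD, n = 15 probes), and in both the input was higher by more than MeDIP was lower. Olfactory receptor genes made up 4 of the 12, Olfr1288 (-0.78), Olfr912 (-0.71), Olfr1502 (-0.70) and Olfr768 (-0.70), and the vomeronasal receptor gene V1rc6 (-0.74) was a further receptor. Stau1 (-0.74), Ift52 (-0.68), Ptcd3 (-0.67) and Tmem195 (-0.66) were the others. Input moved more than MeDIP in 9 of the 12, and in Olfr768, Ift52 and Ptcd3 both moved about equally. The 2 probes of Fdft1 bright on both arrays had a mean difference of 0.12, against -0.84 over the gene.

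Counted genes with a symbol numbered 11 higher and 17 lower, and most were short of probes. Among the higher genes, Calm4, a calmodulin-like gene, differed by 1.68 ± 0.91 (SD, n = 3 probes) and Ly6a, which encodes the stem cell antigen Sca-1, by 1.35 ± 0.72 (SD, n = 4 probes), with no probe bright on either array. The input moved more than MeDIP in Ankrd44, Igfbp7, Tfdp2, Zfp827, 4930473A06Rik and 1700055M20Rik: Ankrd44 differed by 1.21 with MeDIP at 0.40 and input at -0.80, and Igfbp7, a secreted binding protein of growth factors, by 1.18 with MeDIP at 0.51 and input at -0.66. Sycp2, a protein of the synaptonemal complex of meiosis, differed by 1.09, Hoxd8 by 1.06, Pard3b by 1.06 and 1700055M20Rik by 1.001. A single probe carried much of several values. Without the probe farthest from the gene's median, Hoxd8 was at 0.67, Sycp2 at 0.71 and Tfdp2 at 0.72, and 12 of the 29 higher and 16 of the 27 lower genes still differed 2-fold.

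Among the lower genes with a symbol, replication-dependent histone genes stood first. Hist2h2bb, an H2B gene, had a log2 ratio of 1.05 in WT and -0.78 in KO, a difference of -1.83 ± 0.72 (SD, n = 5 probes), with input higher by 1.40 and MeDIP at -0.45. Hist1h3d, an H3 gene, went from 0.70 to -0.91, a difference of -1.61 ± 0.28 (SD, n = 3 probes), with input higher by 1.76 and MeDIP at 0.14. Hist1h3h was also counted lower (-1.05). The 4 upstream probes of Hist2h2bb that lie wholly outside the gene are shown because in each the MeDIP difference was smaller than the input difference.
Hist2h2bb probe 1, chr3:96073087-96073145: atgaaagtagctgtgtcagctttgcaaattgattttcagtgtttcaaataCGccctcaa
Hist2h2bb probe 2, chr3:96073157-96073216: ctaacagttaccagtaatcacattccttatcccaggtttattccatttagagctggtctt
Hist2h2bb probe 3, chr3:96073315-96073374: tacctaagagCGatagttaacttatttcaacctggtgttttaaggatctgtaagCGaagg
Hist2h2bb probe 4, chr3:96073542-96073601: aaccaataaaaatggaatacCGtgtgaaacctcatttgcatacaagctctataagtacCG

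At these 4 probes the input was higher in KO by 0.86, 1.37, 1.56 and 1.64. The other counted lower genes included 1700021C14Rik (-1.34), Olfr913 (-1.24), V1ra4 (-1.16), Mrgprb3 (-1.08), Tmem188 (-1.08), Eif2a (-1.06), Zranb3 (-1.06), Wdr53 (-1.04), Olfr860 (-1.04), Bat4 (-1.04), 5830417C01Rik (-1.02), Olfr59 (-1.01) and Olfr1203 (-1.01). Of these, Eif2a had the most probes, with -1.06 ± 0.63 (SD, n = 16 probes), input higher by 0.83 and MeDIP at -0.25. V1rc17 was counted at -1.60, yet 1 of its 5 probes was at -6.91 and without that probe the gene was at -0.27.

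The channels were then separated for all genes. In the higher genes the median MeDIP difference was 0.54 and the median input difference -0.53, and in the lower genes these were -0.41 and 0.76. Input moved more than MeDIP in 14 of 29 higher and 20 of 27 lower genes. Across the 18533 genes the ratio difference followed the input (Pearson r = -0.79) more closely than MeDIP (r = 0.65), both correlations being descriptions across genes measured on the same arrays. Counted on each channel alone by the same rule, MeDIP gave 7 genes higher and 1 lower, and input 11 higher and 1 lower.

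**Figure D2:**
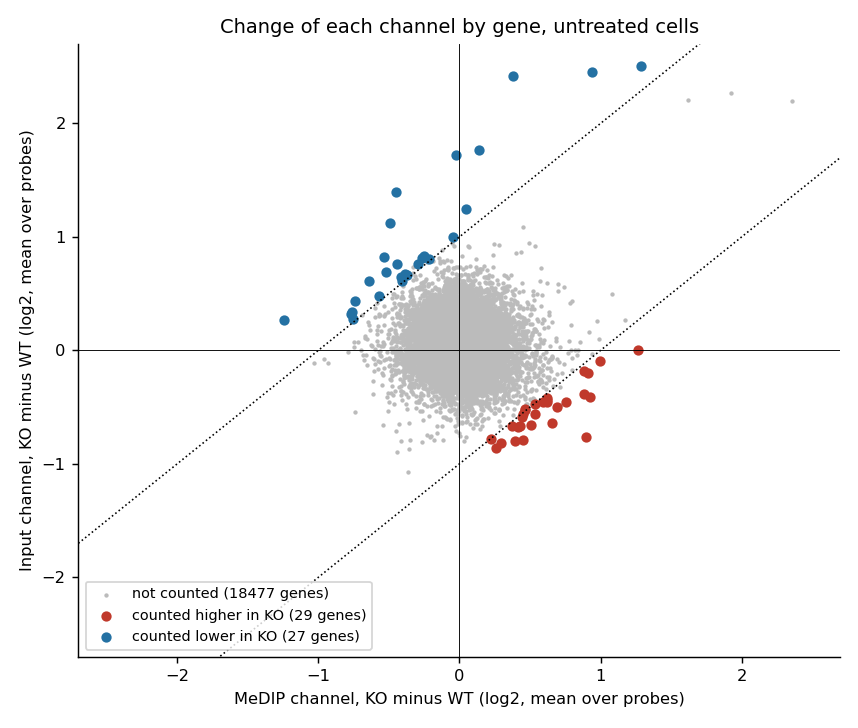
KO-minus-WT difference of the MeDIP channel (horizontal axis, log2) and of the input channel (vertical axis, log2) for each of 18533 genes in untreated cells, each point being the mean over a gene's probes. Dotted lines mark a 2-fold difference of their ratio: the 29 genes counted higher (red) lie at or below 0 on the input axis, and the 27 counted lower (blue) lie above 0 on it, several with input above 1.

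Both channels were then set against base composition. With the 500 bp around each probe sorted by GC content, the median ratio difference went from -0.34 at up to 35% GC to 0.47 above 70% GC. Over the same classes the median input difference went from 0.31 to -0.34 and the median MeDIP difference from -0.004 to 0.04. At the 47.2% of kept probes with a surrogate MeDIP value on both arrays, the SD of the MeDIP difference was 0.10. It was 0.75 at probes with a surrogate on neither array. A median MeDIP difference near 0 therefore does not show that methylation was equal. At probes bright on both arrays, where MeDIP was measured, the ratio went from -0.50 to 0.48, the input from 0.46 to -0.16 and MeDIP from 0.05 to 0.26. Sorted by CpG, probes with at most 2 CpG per 500 bp had a median of -0.17 and those with more than 50 a median of 0.44. Counted higher genes had a median GC content of 65.3%, and counted lower genes 39.4%. When each probe's difference was centred within its GC class, 5 genes were counted higher and 18 lower, 4 and 10 of them among the original calls. This setting was chosen after the trend had been seen, and the part of base composition in the other calls was not tested.

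**Figure D3:**
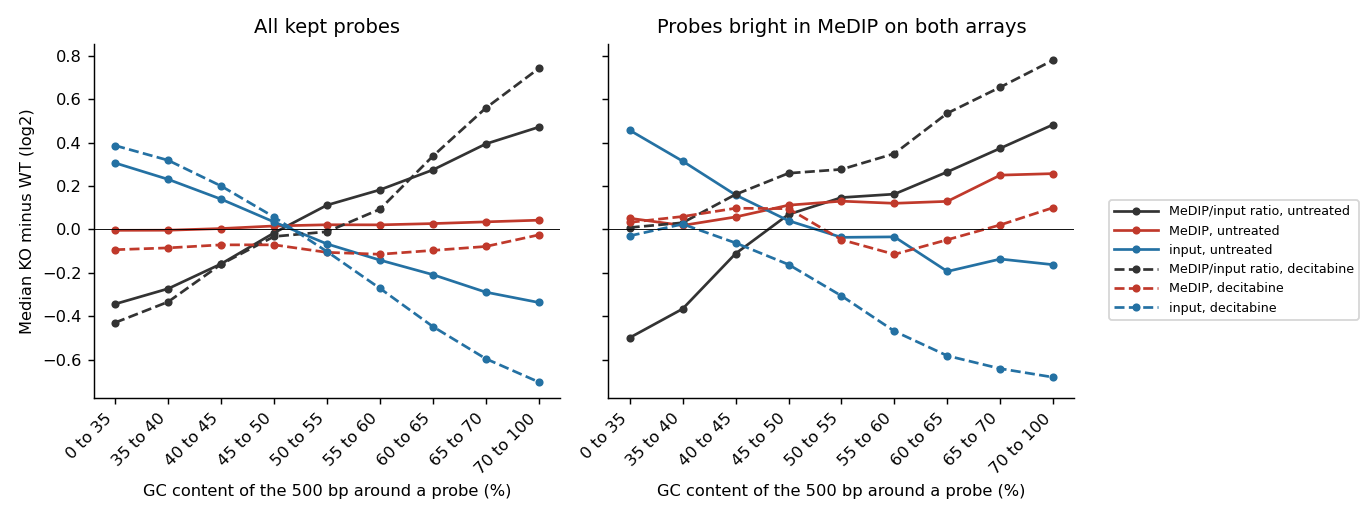
Median KO-minus-WT difference (vertical axis, log2) of the ratio (black), MeDIP (red) and input (blue) by GC content of the 500 bp around a probe (horizontal axis, %), for all kept probes (left) and probes bright on both arrays of a pair (right). Solid lines are untreated and dashed lines decitabine cells. Over all kept probes, input runs from 0.31 to -0.34 without drug and from 0.39 to -0.70 with it. MeDIP, surrogate values included, stays between -0.11 and 0.04 over both.

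Mitochondrial DNA had more input signal in KO. The 29 kept probes of chromosome M had a median input difference of 2.34 (KO higher), a MeDIP difference of 1.44 and a ratio difference of -0.80. The genes AK138995 (input 2.42, ratio -2.03) and AK162500 (input 2.46, ratio -1.502) of chromosome M were counted lower, and AK018753 and AK163440 had inputs of 2.20 and 2.27. AK131579 and BC104337 are placed on chromosome 1 at 24620288 to 24621235, but all their 6 probe sequences occur in the mitochondrial sequence of mm9, and their input differences were 2.51 and 2.21; AK131579 was counted lower too (ratio -1.20). The input of chromosome M was higher in KO under decitabine as well (1.92). Nuclear chromosomes 1 to 19 and X had median input differences between -0.05 and 0.07.

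The sets of genes that follow are described by their medians beside the value of all genes, -0.002. Of 25 lists with 880 symbols, 834 symbols were found on the array, and 2 lists held a counted gene: Sycp2 in the list of germline genes silenced by methylation and Ly6a in that of stem and progenitor cell genes. List medians ran from -0.13 to 0.16. The highest were those of the retinoic acid pathway (0.16, 17 of 27 genes above 0), of developmental genes bound by polycomb in stem cells (0.13, 43 of 50) and of tumour suppressors and known methylation targets (0.12, 27 of 42). The lowest were those of DNA damage response genes (-0.13, 10 of 39 above 0) and housekeeping genes with CpG islands (-0.13, 10 of 38). In each of these 5 lists the median MeDIP difference, surrogate values included, lay between -0.01 and 0.04. The median input difference of each, from -0.12 to 0.15, had the opposite sign to the ratio. Relative to all genes, the medians of the polycomb-bound and DNA damage lists changed sign with probes bright on 1 or both arrays, and that of the housekeeping list with surrogate probes left out. Sign changes of lists and families are counted over the settings of the ratio, without the channels taken alone. With GC classes centred, the median relative to all genes was 0.01 for polycomb-bound genes (27 of 50 above all genes), 0.03 for tumour suppressors, 0.07 for the retinoic acid list, -0.11 for DNA damage and -0.13 for housekeeping genes.

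Within the lists the members named are the highest and lowest with a probe bright on both arrays, each with the SD over its probes. Among writers, readers and erasers of DNA methylation, Zbtb4 (0.88 ± 0.76, n = 13 probes) and Dnmt3l (0.64 ± 0.73, n = 30 probes) were highest and Mbd2 (-0.31 ± 0.58) was lowest. In the retinoic acid list the nuclear receptor corepressor Ncor1 was at 0.54 ± 0.58 and the coactivators Ncoa3 and Ncoa1 at 0.43 ± 0.86 and -0.53 ± 0.73. Among polycomb-bound genes Foxa1 (0.37) and Evx1 (0.34) were highest and Sox2 (-0.06) and Pax8 (0.00) lowest. Housekeeping genes ran from Eif4e (0.61 ± 0.98) and Ywhaz (0.55 ± 0.72) to Tbp (-0.57 ± 0.77) and Polr2a (-0.40 ± 0.83). In the DNA damage list, whose highest value was 0.37, Xrcc4, a protein of end joining, was at -0.63 ± 0.45. Its MeDIP difference was -0.07 and its input was higher by 0.58. Trp53 was at -0.39 ± 0.92.

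Blood lineage genes came next. Myeloid genes had a median of 0.06 (24 of 41 above 0), with Lcn2 (0.38) and Fcgr3 (0.33) highest and Ctsg at -0.12 among those with a bright probe; this median changed sign relative to all genes with normexp background correction and with surrogate probes left out. The median was 0.07 for T and NK lineage genes, 0.05 for B lineage genes, 0.10 for mast cell and basophil genes and 0.02 for erythroid and megakaryocyte genes. Relative to all genes the B lineage, mast cell and erythroid medians each changed sign under 1 to 3 of the other settings, as did those of the imprinted genes and the genes of tissues outside the blood under 1 and that of the muscle genes under 4. With MeDIP alone the medians relative to all genes were -0.02 for myeloid and erythroid genes, -0.01 for genes of tissues outside the blood and -0.03 for muscle genes. Of the stem and progenitor list Gata2 (0.59 ± 0.68) and Mds1 (0.42 ± 0.57) were the highest with a bright probe, and Mllt3 (-0.26) and Flt3 (-0.16) the lowest. The 2 probes of Gata2 bright on both arrays had a mean of -0.85, against 0.59 over its 56 probes. Genes of tissues outside the blood had a median of 0.07 and muscle genes 0.06. Imprinted genes, of which 1 allele is normally methylated, had a median of 0.04, from Phlda2 (0.41) and Dlk1 (0.33) to Zim1 (-0.12) and Plagl1 (-0.11).

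Families were picked by name after their values had been seen. The medians of the receptor and Hist1 families lay below that of any list, and those of the Hox and ribosomal protein genes within the range of the lists. The 806 olfactory receptor genes had a median of -0.31 (84 above 0), the 97 vomeronasal receptor genes -0.32 (10 above 0) and the 41 genes of the Hist1 clusters -0.34 (4 above 0), while 39 Hox genes had 0.12 (32 above 0) and 89 ribosomal protein genes -0.09 (22 above 0). The median input difference was 0.27, 0.33 and 0.35 in the first 3 families and -0.11 in the Hox genes. The median MeDIP difference of the 5 families, surrogate values included, lay between -0.06 and 0.01. The receptor families have a median GC content of 36.5% and 36.6%, against 49.5% for all genes. Relative to the median of all genes, none of these 5 families changed sign under the other settings of the ratio in which it was measured (13 or 14 a family), but several medians came close to that of all genes. With GC classes centred the medians relative to all genes were -0.04 for olfactory receptor genes, -0.02 for vomeronasal receptor genes, -0.17 for Hist1 genes (8 of 41 above all genes), -0.08 for ribosomal protein genes and 0.06 for Hox genes. With loess the Hox genes were at 0.0006 relative to all genes (21 of 39 above). With MeDIP alone the ribosomal protein genes were at 0.002 and the Hox genes at 0.0004.

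**Figure D4:**
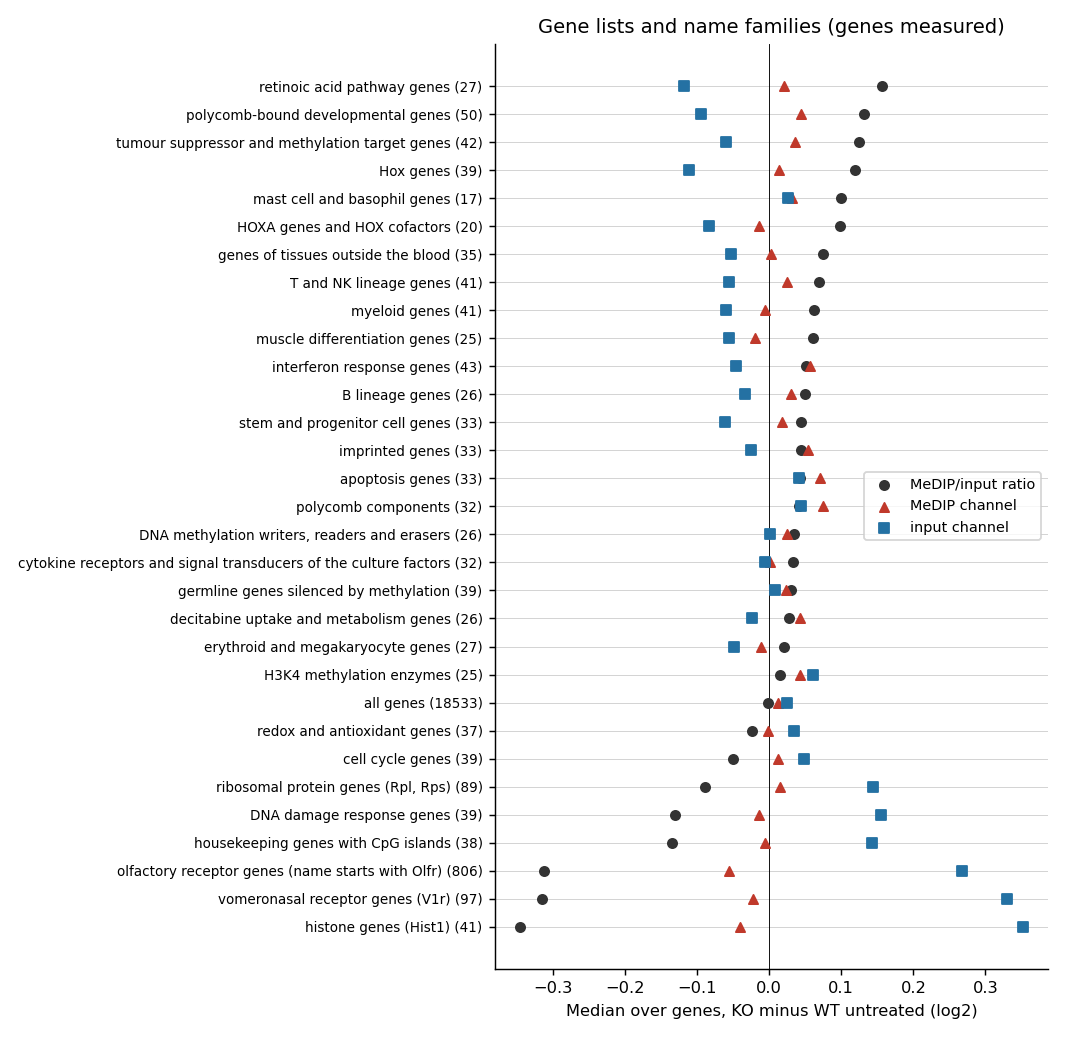
Median KO-minus-WT difference (horizontal axis, log2) of the ratio (black circles), MeDIP (red triangles) and input (blue squares) for each gene list or name family (vertical axis), with the number of genes measured in brackets. Ratio medians run from -0.34 (Hist1) to 0.16 (retinoic acid pathway), and where they lie farthest from 0 the input lies on the other side while MeDIP stays near 0. The MeDIP medians include surrogate values, so lying near 0 does not show equal methylation.

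The genes named in the labels and the treatment's targets follow. No probe of the array is named for Mll5, but 17 lie within 2000 bp of that gene (chr5:22940259-23010053, plus strand, mm9), the last of them ending at 22940709 near its start. Over the 16 kept, the log2 ratio was -1.01 in WT and -0.65 in KO, a difference of 0.36 ± 0.95 (SD, n = 16 probes), with MeDIP at 0.34 and input at -0.006. Probes at the start of the gene cannot show a deletion elsewhere in it, so they check nothing about the KO label. Hoxa9, named by the genotype field, had 32 probes with a difference of 0.07 ± 0.56 and an input difference of -0.10. That sign of the ratio turned with loess, with quantile normalization and with GC classes centred. Meis1, a cofactor of HOXA9, was at 0.04 ± 0.67 (SD, n = 39 probes). Of the DNA methyltransferases Dnmt1 was at 0.13 ± 0.54, Dnmt3a at 0.16 ± 0.89 and Dnmt3b at 0.27 ± 0.53 (SD over probes). The sign of Meis1 and of Dnmt3a turned with loess and with surrogate probes left out, and that of Dnmt1 with normexp and with dim signals raised. Dck, the kinase that activates decitabine, was at -0.61 ± 0.81 (SD, n = 23 probes), from 0.46 in WT to -0.14 in KO, with MeDIP at -0.26 and input higher by 0.36.

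The same contrast in decitabine-treated cells shares no array with the untreated one. Of the counted genes measured there, 24 of 27 higher and 21 of 25 lower genes had the same direction, beside 67.4% of all genes. The input moved the same way in 24 of 27 and 24 of 25 of them, and MeDIP in 14 of 27 and 14 of 25. Across 18351 genes the 2 contrasts correlated at r = 0.51 for the ratio, 0.03 for MeDIP and 0.70 for input, and the sign was shared by 49.8% of genes in MeDIP and 75.9% in input. At the 8687 probes bright on all 4 arrays r was 0.41 for the ratio, 0.22 for MeDIP and 0.51 for input. These correlations are descriptions across genes or probes, which share base composition.

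**Figure D5:**
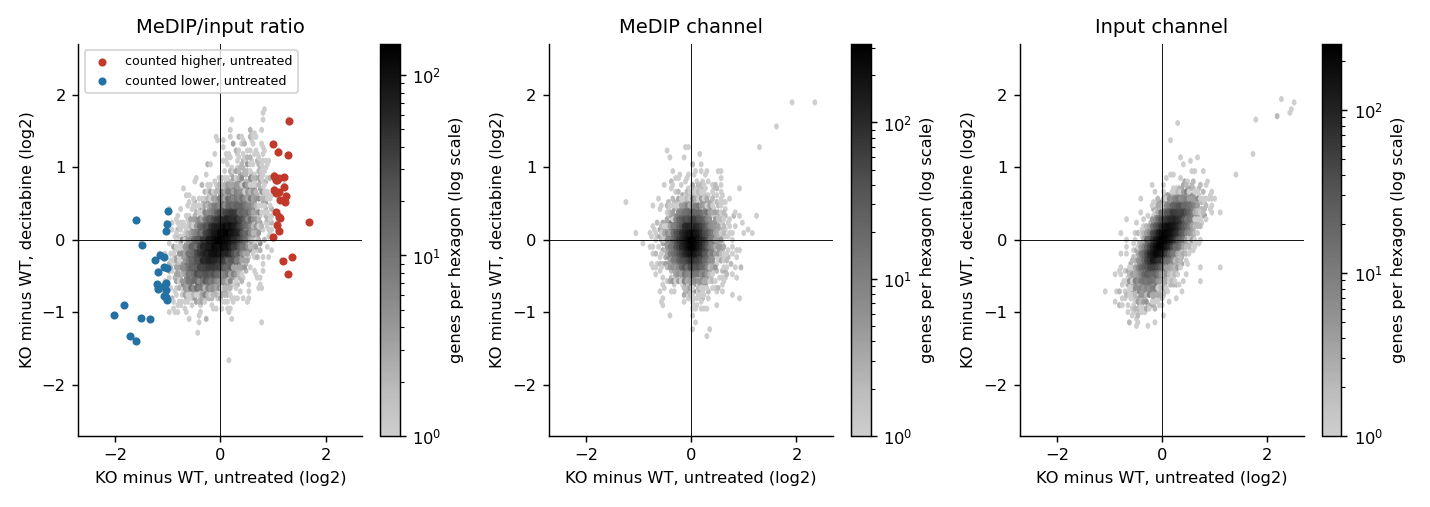
KO minus WT of each gene in untreated (horizontal axis, log2) and decitabine-treated cells (vertical axis, log2) for the ratio, MeDIP and input, as numbers of genes per hexagon on a log scale; in the left panel coloured points are the genes counted in untreated cells. The cloud is tilted for the ratio (r = 0.51) and the input (r = 0.70) and round for MeDIP (r = 0.03), and the scattered genes at the upper right of the input panel include the mitochondrial ones.

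Under decitabine 84 genes were counted higher (0.457%) and 14 lower (0.0762%). Those counted in both pairs were 4 higher (13.8% of the untreated list and 4.76% of the decitabine list) and 5 lower (18.5% and 35.7%). With a symbol these were Sycp2 (1.09 untreated, 1.21 under decitabine) and 1700055M20Rik (1.001 and 1.32) among the higher, and Hist1h3d (-1.61 and -1.39) and 1700021C14Rik (-1.34 and -1.09) among the lower. In Hist1h3d the input was higher in KO by 1.76 untreated and by 1.68 under decitabine. In Sycp2 input was lower by 0.46 and 0.81 and MeDIP higher by 0.62 and 0.38. The 12 highest genes with a bright probe ran from -0.15 in Zfp708 to 1.05 in Gm693 under decitabine, with Zfp827 at 0.31, Actl6b at 0.26 and Edg6 at 0.06. The 12 lowest ran from -0.90 in Olfr1288 to -0.002 in Stau1, with Fdft1 at -0.25 and Ptcd3 at -0.08.

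An additive fit of genotype and treatment over the 4 arrays (limma, Benjamini-Hochberg adjusted p below 0.05) is the one test these arrays allow. Its single residual degree of freedom is the interaction. The error of the fit therefore measures only the departure from additivity, and not the spread over cultures or slides. Any difference that both pairs share counts as genotype. The fit called 754 of 18332 genes for genotype, 369 higher (2.01%) and 385 lower (2.1%) in KO. Of the counted genes 18 of 29 higher and 16 of 27 lower were called in the same direction, arrays being shared. The calls were not stable to normalization: with loess within each array 1 gene was higher and 4 lower. The same fit on the input channel alone called 3870 genes and on MeDIP alone 19. In limma's fit Zbtb4 (adjusted p = 0.025), Hsf5 (0.01), Gm693 (0.01), Dnmt3l (0.032), Olfr1288 (0.01) and Eif2a (0.01) were called. Zfp827 (adjusted p = 0.056 in limma's fit), Fdft1 (0.06), Ttll12 (0.37), Hoxa9 (0.37) and Meis1 (0.92) were not. Most of these genes were named for their difference on the untreated arrays, which the fit also uses. A call is therefore no separate support for them. Olfactory receptor genes supplied 107 of the 385 lower calls, and the Hox genes called, Hoxb8 and Hoxd8, were higher.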

How the data were processed

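DNA of each cell population was immunoprecipitated with the MagMeDIP kit, and MeDIP and input DNA were each amplified over the whole genome before labelling, per the labels' protocols. The authors deposited scanner output of Feature Extraction, Agilent's software (version 10.5.1.1 per the file headers and 10.5 in the submitters' processing notes), with processed intensity signals of both channels, already background-subtracted and dye-normalized, and a log10 ratio of red over green. The deposited value table held log2 ratios that equalled the negative scanner log ratio, to 3 decimals, in 357011 of 357054 entries. Probe positions are those of mm9, and 519521 of 519613 probe sequences equalled that genome at their position. Dyes were not swapped, so dye and channel cannot be told apart.

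Non-control probes with input well above background and no non-uniformity flag on both arrays were kept, log2 ratios of MeDIP over input were centred on the array median, and probes were averaged for genes with at least 3. A gene was counted at a 2-fold difference with 80% of probes moving that way. Named genes were the 12 highest and lowest with at least 5 probes, 1 of them bright on both arrays; the 8 highest and lowest over probes bright on both arrays; up to 8 each way bright on 1 array alone; counted genes with a symbol; the 6 leading runs each way; and the 2 highest and lowest of each list. Runs joined at least 3 probes at most 500 bp apart. The additive fit used limma 3.58.1 in R 4.3.3, and other steps Python 3.11.15 with pandas 2.3.3 and numpy 2.4.6; the steps were tested on simulated data. The alternatives changed background correction, normalization, centring, the source of the ratio, filters, treatment of dim MeDIP signals, channel, summary over probes and probe minimum. The number of arrays limits the precision. The genes and lists were chosen with earlier results of these data known. Gene names are those of the array's design and can be old. Some genes that the naming rule picked are not reported here.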

Additional observations from a re-analysis of the deposited data

Results flagged for a closer look

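Genes counted in untreated cells whose KO-minus-WT difference had the other sign under decitabine were Ly6a (1.35 untreated, -0.24 under decitabine), Igfbp7 (1.18 and -0.28), Olfr59 (-1.01 and 0.22), Bat4 (-1.04 and 0.12) and V1rc17 (-1.60 and 0.27), and, among those without a symbol, BC104368 (1.285 and -0.48) and AK076988 (-1.004 and 0.39). The run of probes near Tspan7 also turned, from -1.60 to 0.32. With 1 array a group the difference between the pairs was not tested. In Ly6a the MeDIP difference went from 0.92 to -0.36, and in Igfbp7 from 0.51 to -0.72, while the input difference of both genes stayed below 0 (-0.41 and -0.10 in Ly6a, -0.66 and -0.42 in Igfbp7). Ly6a rested on 4 probes and Igfbp7 on 5, none of them bright on either untreated array. The value of V1rc17 was set by 1 probe at -6.91.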

How the results depend on the processing

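No paired analysis was possible because each group was 1 array. Beside 29 genes counted higher and 27 lower, normexp background correction gave 56 and 8, centring on housekeeping probes 51 and 13, and no probe filter 46 and 17. Raising dim MeDIP signals to the lowest bright signal gave 1 and 13, the MeDIP channel alone 7 and 1, the input channel alone 11 and 1, and at least 8 probes a gene 1 and 7. The higher genes numbered 9 with loess, 7 with quantile normalization and 92 with probes bright on 1 or both arrays, where the lower genes numbered 39, 21 and 40. Of 2 settings chosen after seeing the data, centring within GC classes gave 5 and 18, and leaving out surrogate probes 73 and 180. Fewer genes were measured with bright probes (1826) and without surrogate probes (13450) than in the main setting (18533). Of the original higher and lower genes, 1 and 0 were counted again with bright probes, and 2 and 5 without surrogate probes. The cause of these shifts in the counts was not tested. Normexp moved the median of all genes to 0.12 and housekeeping centring to 0.10, and loess to -0.09. None of the 29 higher genes was counted with loess. The additive limma fit, with 369 genes higher and 385 lower, gave 93 and 145 when centred on probes bright on all 4 arrays, 1 and 4 with loess, and 246 and 205 with the median over probes. Olfr59 turned to 0.013 with normexp. Under 1 or more settings of the ratio, 72 of 184 single genes and 19 of 30 lists and families, relative to all genes, changed sign. Among the 28 counted genes with a symbol this was Olfr59. Several of those genes were measured under fewer settings, 10 in Hist1h3h and 11 in Ly6a, Igfbp7 and Sycp2, against 14 in Zfp827. Few probes bright in MeDIP, 1 array a group and no dye swap limit every value.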

Other observations

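Other gene groups gave values not described so far. Among interferon response genes (median 0.05), Oas1b, an oligoadenylate synthetase gene, was highest with a bright probe at 0.88 ± 1.30 (SD over probes), and Bst2, which encodes tetherin, was at 0.47. Of the enzymes of H3K4 methylation (median 0.02), Ash2l was at 0.39, Wdr5 at -0.60 and Ncoa6 at -0.42. Cytokine receptors and signal transducers of the culture factors had a median of 0.03 (18 of 32 above 0). Their highest value was 0.93, and the lower members Pik3ca and Stat3 were at -0.51 and -0.43. Cell cycle genes had a median of -0.05 (15 of 39 above 0), redox genes -0.02, polycomb components 0.04, apoptosis genes 0.04 and HOXA genes with HOX cofactors 0.10 (14 of 20 above 0). The germline list, with Sycp2, had a median of 0.03, and genes of decitabine uptake and metabolism 0.03. Relative to all genes the apoptosis and H3K4 medians changed sign under 3 of the other settings of the ratio, those of the cell cycle, redox, decitabine uptake, cytokine receptor and polycomb component lists under 2, and those of the HOXA and germline lists under 1, while the interferon median kept its sign in all 14. With MeDIP alone the HOXA median was -0.03 relative to all genes.

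By position, exonic probes had a median ratio difference of 0.18, intronic probes 0.02 and intergenic probes -0.05. Their median input differences were -0.11, 0.01 and 0.06 in that order. Their median MeDIP differences, surrogate values included, were 0.02, 0.02 and 0.01. Probes within 1000 bp of a start site had a median ratio difference of 0.09 and the others -0.02. The input was at -0.03 and 0.03 in these probes, and MeDIP, surrogate values included, at 0.02 and 0.01. The part of base composition in these differences was not tested. The microRNA gene mmu-mir-715 on chromosome 17 had an input difference of 1.09 and a ratio difference of -0.63 over 23 probes.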
